A study of Mus musculus with 2 samples.

Results

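The cells described here were the keratin-expressing epithelial cells found among dissociated mouse eyecups at e13.5, a stage at which the surface ectoderm over the eye gives rise to the corneal and conjunctival epithelium. A barcode, the tag shared by the reads of 1 droplet, was counted as epithelial when it passed the quality limits (at least 200 genes, at most 15% mitochondrial UMIs), held at least 1 UMI (unique molecular identifier, 1 captured transcript) of at least 4 of the 8 genes Krt5, Krt14, Krt15, Krt19, Epcam, Trp63, Perp and Krt13, and held none of the pigment cell genes Mlana and Tyr. The barcodes were thus chosen by measured values, and the rule selected 51 of 11893 passing barcodes, which is 0.429% (exact binomial 95% interval 0.319 to 0.563). The control library came from Myrf fl/fl embryos, in which both Myrf alleles are flanked by loxP sites, and the mutant library from Rx>cre Myrf fl/fl embryos, which carry the same floxed alleles and a Cre that is active in the early eye field. Each library was made from 3 pooled eyecup samples of 1 age, so there was 1 library per genotype and no spread between animals could be measured. Every comparison below is therefore a description without a test, and every interval covers counting error only. According to the study's methods the cornea, lens and optic nerve were taken off before dissociation, so the number of epithelial barcodes also follows how much surface tissue stayed on each eyecup. That amount and the genotype cannot be told apart.

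The surface ectoderm is an epithelial sheet that covers the developing eye. Its cells are joined by desmosomes and tight junctions, carry keratin filaments inside, and sit on a basement membrane to which hemidesmosomes anchor them. Trp63 encodes p63, the transcription factor that marks the basal, renewing layer of stratified epithelia, and a flat outer layer called the periderm lies over the basal layer in the embryo. Surface ectoderm also sends signals to the tissues beneath it, among them Wnt and platelet-derived growth factors, and Pax6 is needed in it for lens and cornea to form. The Rx regulatory sequence is active in the eye field of the neural plate, from which retina and pigment epithelium come, and the surface ectoderm is not a descendant of that field.

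To show the sequence context of genes that led the comparison with all other barcodes, the 250 bases before the RefSeq start site of Sfn, Krt7 and Wnt6 are given below, 5′ to 3′ on the strand of the gene. The coordinates are those of GRCm38.p6. The capitals mark matches to 2 published binding motifs of epithelial transcription factors, searched on both strands: AACNGGTT, the grainyhead-like (GRHL) motif, and GCCNNNGGC, the TFAP2 motif. Sfn encodes 14-3-3 sigma, a cell cycle and keratinocyte differentiation protein, and its window (chr4:133602169-133602418, minus strand) held the GRHL letters 184 bases before the start. Krt7 encodes a keratin of simple epithelia, and its window (chr15:101412153-101412402, plus strand) held 2 TFAP2 matches. Wnt6 encodes a secreted Wnt ligand, and its window (chr1:74771642-74771891, plus strand) held 1 TFAP2 match, 12 bases before the start.
Sfn: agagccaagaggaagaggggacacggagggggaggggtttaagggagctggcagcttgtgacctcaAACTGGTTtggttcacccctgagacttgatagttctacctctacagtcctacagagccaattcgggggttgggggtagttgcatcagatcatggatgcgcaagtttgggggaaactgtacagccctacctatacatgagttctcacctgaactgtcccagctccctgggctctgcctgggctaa
Krt7: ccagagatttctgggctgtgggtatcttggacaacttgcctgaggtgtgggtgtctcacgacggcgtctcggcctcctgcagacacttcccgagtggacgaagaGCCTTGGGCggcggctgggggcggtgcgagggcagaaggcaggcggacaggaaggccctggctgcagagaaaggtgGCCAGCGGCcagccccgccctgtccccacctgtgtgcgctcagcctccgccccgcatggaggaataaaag
Wnt6: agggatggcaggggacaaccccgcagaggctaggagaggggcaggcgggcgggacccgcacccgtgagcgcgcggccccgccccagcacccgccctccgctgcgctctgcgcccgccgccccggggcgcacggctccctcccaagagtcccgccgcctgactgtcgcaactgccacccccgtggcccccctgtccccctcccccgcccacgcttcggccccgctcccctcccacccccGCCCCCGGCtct

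Of 32851 promoter windows of 300 bases (250 before and 50 after a start), 2.09% held the GRHL letters and 16.6% the TFAP2 letters. The 15 genes with the largest ratio over the other barcodes included 8 with a window in the RefSeq table. Of these 8, Sfn alone held the GRHL letters, and Cldn3, Fermt1, Krt7 and Wnt6 held the TFAP2 letters. Of the 8 genes of the rule, 4 had a window, and none of these held either motif. A match describes letters in a window and is not a measured binding site.

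The epithelial barcodes numbered 28 of 5519 in the control library (0.507%, 0.337 to 0.732) and 23 of 6374 in the mutant library (0.361%, 0.229 to 0.541). The difference, mutant minus control, was -0.146 percentage points, with a counting interval from -0.402 to 0.0918 that included 0. They were deeper than the rest of the libraries: their median was 20122.5 UMIs in the control library (1365 to 42366) and 21673 in the mutant library (1638 to 38823), against 11354 and 11168 for the other barcodes. The median mitochondrial share was 4.02% and 3.98%. The 2 libraries shared 72 barcode sequences, and no epithelial barcode was among them.

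The threshold of the rule fell in a sparse region. With no Mlana or Tyr, 4596 control and 5505 mutant barcodes held UMIs of none of the 8 genes, and 466 and 552 held 1. Just outside the rule, 9 control and 4 mutant barcodes held 3 markers (median 4642 and 1610.5 UMIs), and just inside it, 3 and 6 held 4 markers (median 2524 and 9564.5 UMIs). The highest number reached was 7 markers, in 5 control barcodes and 1 mutant barcode. The condition on pigment genes removed 1 control and 3 mutant barcodes.

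Some features of these barcodes differed between the libraries. In the mutant library, 2 epithelial barcodes also met the rule for retina (5 of 8 retinal progenitor genes) and 1 met that for red blood cells, with 49.99% of its UMIs from haemoglobin genes. In the control library no barcode met a second rule. The 2 mutant barcodes with retinal genes held 54 of the 81 Sfrp2 UMIs and 27 of the 30 Six6 UMIs of all mutant epithelial barcodes. By embryo sex, barcodes with Xist and no Y-linked UMI numbered 15 in the control library and 4 in the mutant library, and those with Y-linked UMIs and no Xist 7 and 12. Haemoglobin made up a median of 0.0289% and 0.0454% of the UMIs of a barcode. Scrublet, a doublet caller, marked 0.924% and 1.16% of all passing barcodes and no epithelial barcode, so it did not mark the 3 barcodes that met a second rule.

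The genes that chose the barcodes were present as follows, and these values are a description of the rule. Krt15, a basal keratin, had 334 UMIs in 25 of 28 control barcodes and 215 in 19 of 23 mutant barcodes. Krt5, the type II keratin of basal cells, had 180 UMIs in 27 control barcodes and 254 in all 23 mutant barcodes. Epcam, an epithelial adhesion molecule, had 304 UMIs in 28 and 188 in 21 barcodes. Both libraries thus held these 3 genes in nearly every barcode. Perp, a desmosome protein and p63 target, was found in 27 and 23 barcodes. Krt19 was found in 25 and 21. Trp63 had 30 UMIs in 18 control barcodes and 22 in 10 mutant barcodes.

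Krt14, the usual type I partner of Krt5 in adult basal cells, was almost missing, with 14 UMIs in 7 control barcodes and 1 UMI in the mutant library. Krt13, a keratin of moist stratified surfaces, had 0 UMIs in both. Several other genes that would tell cornea from conjunctiva were also at 0: Krt12 and Aldh3a1 of the mature cornea, Krt4 of the conjunctiva, and Spdef and Muc5ac of goblet cells. Of 22 ocular surface genes on the list, 15 had a UMI, and those at 0 also included Wnt7a and Tgfbi. Krt5, Krt15 and Trp63 were thus present, and the genes at 0 included those named above for mature cornea, conjunctiva and goblet cells. Lypd2, a gene known from conjunctival epithelium, was found in 6 control and 9 mutant barcodes. These data do not separate cornea, conjunctiva and eyelid. The cells are called epithelial barcodes in what follows.

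Lens was checked since it too comes from surface ectoderm and was removed in dissection. Of 23 lens genes, 15 had no UMI in any epithelial barcode, among them the crystallins Cryaa, Cryba1 and Crygs and the lens factor Foxe3. Cryab, a small heat shock protein that is abundant in lens and found in other tissues, accounted for most of the rest, with 19 control and 80 mutant UMIs. Summed over the lens list, the highest barcode reached 7.33 (control) and 7.97 (mutant) UMIs per 10000. Summed lists of other cells were lower than in the other barcodes, and most were not at 0. The 8 retina genes summed to 29 control and 167 mutant UMIs (53.5 and 346 CPM, against 1948 and 1667 CPM in the other barcodes). Without the 3 barcodes that met a second rule, the mutant value was 127 CPM. The 8 mesenchyme genes summed to 38 and 22 UMIs, and the 8 neuron genes to 8 and 11. The 8 pigment genes summed to 10 control and 3 mutant UMIs with Tyrp1 and Mitf at 0, the 8 endothelial genes to 4 and 1 with Pecam1 and Cdh5 at 0, and the 8 macrophage genes to 0 and 3 with Csf1r and Tyrobp at 0. The 8 genes of neural crest and glia summed to 18 and 7 UMIs with Sox10 at 0, and most of these came from Erbb3, a receptor that epithelia also use (16 and 7 UMIs).

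**Figure D1:**
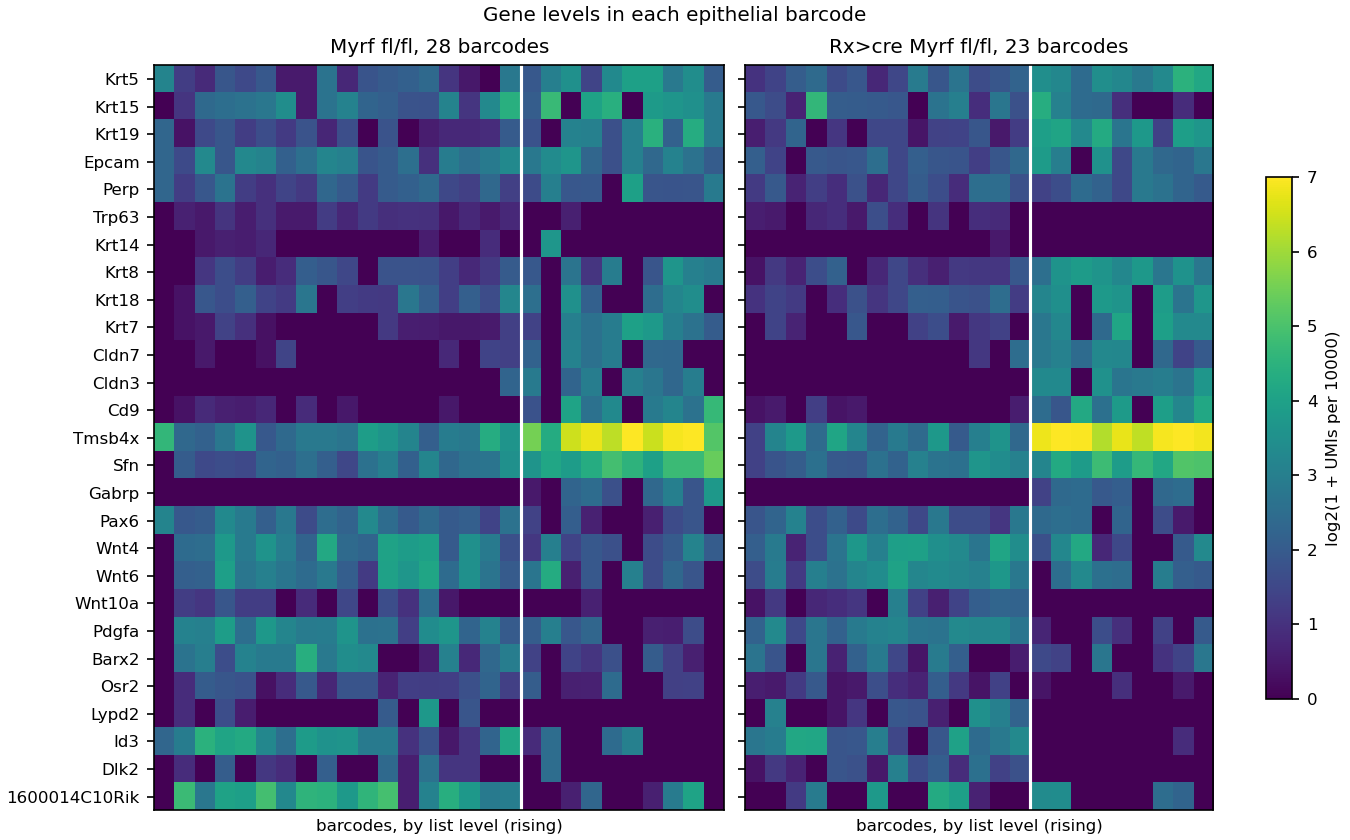
Level of 27 genes (rows) in each epithelial barcode (columns), as log2(1 + UMIs per 10000), with 28 control barcodes at left and 23 mutant barcodes at right. Columns are ordered by their summed level of a periderm and suprabasal gene list, and the white line marks 25 UMIs per 10000 of that list. Krt5 and Epcam are present on both sides of the line, Tmsb4x is high to its right, and Trp63, Wnt10a, Pdgfa and Id3 are mostly to its left.

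The epithelial barcodes differed from all other barcodes of the same library by a large set of genes. For each gene the UMIs were summed over barcodes, 1 UMI was added to each sum, and the sums were scaled to counts per 1000000 UMIs (CPM). After the 8 genes of the rule were left out, 13402 genes had at least 50 UMIs in each library. Of these, 334 (2.49%) were at least 4-fold higher in the epithelial barcodes of both libraries. The limit counted epithelial and other UMIs together, so a gene could enter through its high epithelial count. The counts per list below used the same limit. Since every gene was measured in the cells that were sorted, these ratios are descriptions and support nothing further. The median log2 ratio over all genes tested was 0.17 (control) and 0.19 (mutant).

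Among the signalling ligands, Wnt genes had the largest ratios. Wnt4 had 382 UMIs in 26 of 28 control barcodes (705 CPM, 636 to 780) and 330 in 21 of 23 mutant barcodes (683 CPM, 611 to 761), against 4.74 and 5.20 CPM in the other barcodes. Wnt6 had 344 UMIs in 25 control barcodes (635 CPM, 570 to 706) and 301 in 21 mutant barcodes (623 CPM, 555 to 698), against 1.43 and 1.82 CPM elsewhere. These 51 barcodes held 51.1% of all Wnt4 UMIs and 74.2% of all Wnt6 UMIs of the passing barcodes. After each barcode was thinned at random to 3000 UMIs, so that depth was equal, 18 of 26 control barcodes (69.2%, 48.2 to 85.7) and 16 of 21 mutant barcodes (76.2%, 52.8 to 91.8) held a Wnt4 UMI. The share was 1.23% and 1.19% among the other barcodes and 0.535% and 0.471% among red blood cells, which should lack the gene.

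Wnt10a, which encodes another Wnt ligand and lies 6.19 kb from the end of Wnt6 on chromosome 1, had 50 and 58 UMIs, with log2 ratios of 8.43 and 8.69. Wnt7b had 20 and 19 UMIs (log2 5.40 and 6.03). Wnt2, which was not on the list of ligands, had 63 and 72 UMIs (log2 5.31 and 5.19). Wnt9b, which is known from surface ectoderm, had 6 and 9 UMIs and did not reach the count limit. Of 10 Wnt genes on the list 5 were tested, and 4 of them (Wnt4, Wnt6, Wnt7b and Wnt10a) were 4-fold higher. The one that was not was Wnt5a. Wnt10a met the limit of 50 UMIs by its epithelial UMIs alone, so 4 of 5 is not a share free of the selection.

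Among all 44 signalling ligands on the list, 31 were tested and 8 were at least 4-fold higher in both libraries. Beside the Wnt genes these were Pdgfa, Jag2, Edn1 and Efna1. Pdgfa, a growth factor for mesenchyme and astrocyte precursors, had 346 and 226 UMIs (639 and 468 CPM against 19.0 and 15.6 CPM). Jag2, a Notch ligand, had 26 and 14 UMIs (log2 4.33 and 3.91). Bmp7, by contrast, had 26 UMIs in each library and log2 ratios of 1.77 and 1.96, under the 4-fold line. The median of the 31 ligands was -0.12 and 0.09, or 0.52 and 0.65 with those at 0 UMIs set to the limit of 3 UMIs.

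Fewer receptors and pathway targets than ligands were 4-fold higher. Over all genes tested the share was 2.49%. The list medians were -0.12 (control) and 0.09 (mutant) for ligands and -0.16 and -0.43 for targets. With genes at 0 UMIs set to the limit of 3 UMIs, they were 0.52 and 0.65 for ligands and 0.25 and 0.02 for targets. For receptors they were then -0.07 and 0.15. Of 37 receptors tested, 2 were 4-fold higher, Fgfr3 and Erbb3, and the list medians were -0.10 and -0.15. Fgfr2, a fibroblast growth factor receptor needed in ocular surface epithelium, had 68 and 47 UMIs (log2 1.72 and 1.53). Of 41 target and feedback genes tested, Kremen2 alone was 4-fold higher, with 70 and 34 UMIs. Kremen2 encodes a co-receptor for Dkk proteins, which restrain Wnt signalling. Axin2, a common readout of canonical Wnt signalling, had 7 control and 1 mutant UMIs, and Lef1 had 8 and 12. The transporter that Wnt ligands need for release, Wls, reached 133 and 130 CPM. None of 16 retinoid pathway genes was 4-fold higher. Aldh1a3, which makes retinoic acid, came to 179 and 108 CPM, against 208 and 169 CPM in retina. In pigment cells it was 64.7 and 120 CPM.

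Cell junction genes made up the second group. Of 8 desmosome genes tested, 5 were at least 4-fold higher in both libraries (Dsc2, Dsg2, Dsp, Evpl and Pkp3), with list medians of 4.53 and 4.19. Dsp, desmoplakin, had 53 and 36 UMIs in 21 and 16 barcodes. Of 15 tight junction and polarity genes, 9 passed, with medians of 3.51 and 3.52. The claudins, the sealing proteins of tight junctions, were among them. Cldn6 had 73 and 47 UMIs (log2 9.35 and 8.76). Cldn7 had 65 and 91 (log2 9.19 and 8.03). Cldn4 had 92 and 70 (log2 7.99 and 7.63), and its neighbour Cldn3, 39.3 kb away on chromosome 5, had 73 and 103 (log2 7.73 and 8.24). Tjp1, the scaffold protein ZO-1 that many tissues use, had log2 ratios of 0.76 and 0.26.

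The basement membrane list was less uniform. Of 22 hemidesmosome and basement membrane genes tested, 5 were 4-fold higher: Col17a1, Fermt1, Frem2, Itga3 and Lama5. Fermt1, the integrin activator kindlin-1, had 87 and 81 UMIs (log2 9.05 and 8.71), and Col17a1, a hemidesmosome collagen, had 20 and 8. The median of the list was 0.83 and 0.63. Keratins of simple epithelia were present next to the basal ones. Krt7 had 99 and 157 UMIs (log2 8.79 and 9.17). Krt8 had 128 and 158 (log2 5.69 and 6.53) and its partner Krt18 had 181 and 199 (log2 1.80 and 2.97). Krt18 was not particular to the epithelium, and pigment cell barcodes held it at 1926 and 1334 CPM.

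Periderm and suprabasal genes also stood apart, with 9 of 13 tested passing in both libraries and medians of 4.84 and 5.30. Sfn had 427 UMIs in 27 control barcodes and 442 in all 23 mutant barcodes (788 and 915 CPM, against 1.16 and 2.00 CPM elsewhere), so it was as widely present as the markers that defined the cells. Of the 31 genes on this list, 13 were at 0 UMIs in both libraries. They were the markers of a cornified layer Ivl, Krtdap, Sprr1a and Sprr1b, the keratin Krt17 and the mucin genes Muc1, Muc4, Muc16 and Muc20. Dmkn, Ly6d, Psca and Aqp5 were the others. Other genes among the 15 leading ones were Gm16136 (113 and 101 UMIs), 4631405K08Rik (154 and 79), the calmodulin-like gene Calml3 (45 and 72), the p63-associated gene Trim29 (74 and 41) and Pnoc, the precursor of nociceptin (106 and 116). Gm16136 is an antisense gene (chr15:37231793-37233309 in GENCODE M21, minus strand) that shares 274 bases with Grhl2, an epithelial transcription factor on the opposite strand. Grhl2 itself had 10 and 11 UMIs.

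Transcription factors were lower in count. Of 11 epithelial factors tested, 5 were 4-fold higher in both libraries, among them Barx2, Grhl3, Klf5 and Tfap2a, with list medians of 2.29 and 1.17. Barx2, a homeobox factor, had 253 and 112 UMIs (467 and 232 CPM), and none of the 7 other classes compared exceeded 3.78 CPM. Tfap2a had 21 and 17 UMIs (log2 4.05 and 4.07). Its relative Tfap2b was not particular to the epithelium, with 92.3 and 68.3 CPM against 222 and 218 CPM in mesenchyme. The ocular surface list was not raised as a whole. Of 15 of its genes tested, 1 was 4-fold higher in both libraries. In both libraries 7 were higher and 8 lower. The list medians were -0.24 and -0.58, or -0.24 and -0.03 with those at 0 UMIs set to 3 UMIs, against 0.17 and 0.19 for all genes.

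**Figure D2:**
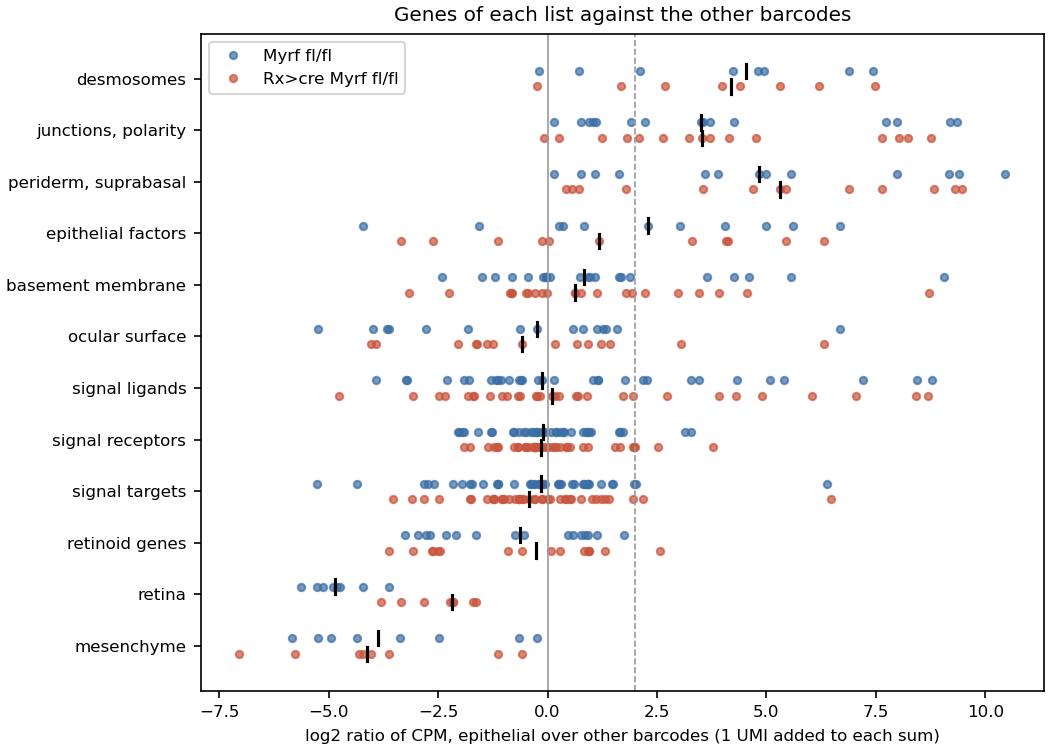
Log2 ratio of CPM in the epithelial over the other barcodes for each gene (points) of 12 lists, in the control (blue) and mutant (red) library. Black bars are list medians and the dashed line is the 4-fold limit. Desmosome, junction and periderm genes lie mostly to the right of 0, signalling lists centre near 0 with a few ligands far to the right, and retina and mesenchyme genes lie to the left.

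Pax6 was shared with the neural eye and did not mark the epithelium. It had 186 UMIs in 24 of 28 control barcodes (343 CPM, 296 to 397) and 149 in 20 of 23 mutant barcodes (308 CPM, 261 to 362). Barcodes that met the rule of retina and of no other class had 456 and 438 CPM, neurons 660 and 631, and pigment cells 169 and 145. In mesenchyme it was 8.78 and 8.39 CPM, and in red blood cells 5.50 and 6.65. Summed over all epithelial barcodes, the level thus lay under that of retina and neurons and above that of pigment cells in both libraries. It differed between 2 ranges of these barcodes that are described below. Thinned to 3000 UMIs, 13 of 26 control barcodes (50%, 29.9 to 70.1) and 8 of 21 mutant barcodes (38.1%, 18.1 to 61.6) held a Pax6 UMI, against 1.60% and 4.00% of red blood cells. At that depth the level is close to 1 UMI per barcode. Over 20 further draws the numbers ran from 10 to 20 (median 14.5) and from 8 to 15 (median 12). The mutant number given above thus equals the lowest of those draws, and no change between the libraries can be read from these shares.

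The order of cell classes differed from gene to gene. Wnt4 was next highest in pigment cells and mesenchyme, at 5.07 and 8.39 CPM in the control and 11.02 and 8.21 CPM in the mutant library. Pdgfa had a second source, pigment cells, with 199 and 226 CPM. Fgfr2 in mesenchyme, at 101 and 94.6 CPM, was near its epithelial level of 126 and 97.3 CPM. Osr2, an odd-skipped factor named after its values were seen, reached 162 and 78.7 CPM in the epithelium and 20.3 and 26.0 CPM in mesenchyme.

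**Figure D3:**
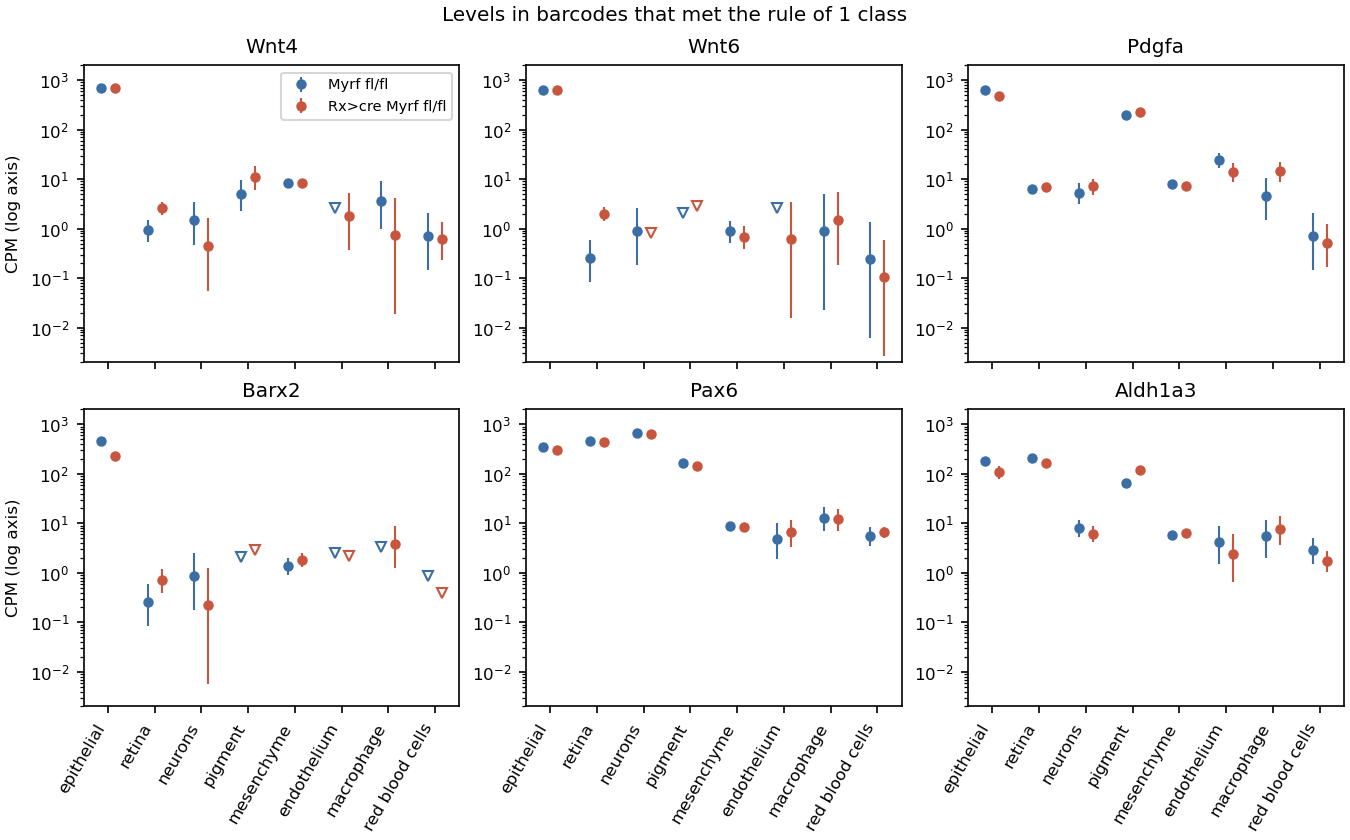
CPM on a log axis of 6 genes in 8 groups of barcodes, for the control (blue) and mutant (red) library. The epithelial group holds all epithelial barcodes, including the 3 mutant ones that met a second rule. Barcodes of the other groups met the rule of 1 class alone. Points are sums over barcodes, bars are exact Poisson 95% intervals, and open triangles are the upper end of that interval where no UMI was found. Wnt4, Wnt6 and Barx2 are high in the epithelial barcodes alone, and Pdgfa also in pigment cells. Pax6 is also high in neurons, retina and pigment cells, and Aldh1a3 in retina and pigment cells.

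The epithelial barcodes were not uniform. The summed level of the periderm and suprabasal list ran from 3.96 to 96.2 UMIs per 10000, with a gap from 23.1 to 30.2. A line at 25 per 10000, set after the values were seen, put 10 of 28 control barcodes (35.7%, 18.6 to 55.9) and 9 of 23 mutant barcodes (39.1%, 19.7 to 61.5) in a high range. The difference in that share was 3.42 percentage points (-21.7 to 28.5). These are ranges of 1 score and not cell types, and 5 barcodes lay from 20 to 35 per 10000. The high range was shallower, with medians of 18027 and 18808 UMIs against 23590 and 24845.5. All 3 barcodes that met a second rule were in the low range. Genes of the list, such as Sfn, Gabrp, Cldn4 and Anxa1, set the ranges and are left out of what follows.

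Among genes that were not on that list, Tmsb4x stood out. It encodes thymosin beta 4, an actin-binding peptide. In the control library its lowest, median and highest values were 2.83, 6.09 and 23.8 UMIs per 10000 in the low range and 18.9, 86.5 and 205 in the high range. In the mutant library they were 1.55, 6.70 and 16.2 in the low and 72.7, 117 and 150 in the high range. The 2 ranges overlapped in the control library, and in the mutant library the lowest value of the high range was above the highest of the low range. The log2 ratio of high over low range was 3.71 and 4.02.

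Of 2696 genes with at least 50 UMIs in epithelial barcodes, 36 were at least 4-fold higher in the high range of both libraries (1.34%) and 26 at least 4-fold lower (0.964%). The higher genes included junction and keratin genes: Cldn3 had 68 UMIs in the high and 5 in the low range of the control library, and 103 and 0 in the mutant library. Krt7 came to 604 and 46.4 CPM in the high and low range of the control library and to 938 and 86.3 CPM in the mutant library. Cd9, a tetraspanin, had 94 and 12 UMIs in the control and 111 and 7 in the mutant library. The metallothionein Mt1 (log2 2.93 and 3.57), the intermediate filament gene Vim (2.71 and 3.31), Basp1 (2.92 and 3.15), Cldn7 (3.42 and 3.74) and Krt19, a gene of the rule (2.65 and 3.21), were also higher. The antisense gene Gm16136 had ratios of 3.00 and 3.33.

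Some list genes of lower count, named after their values were seen, lay mostly on 1 side. Elf5, an epithelial ETS factor, had 13 and 9 UMIs in the high range and none in the low range. Ppl, the cell envelope protein periplakin, had 20 UMIs in the high and 3 in the low range of the control library, and 13 and 1 in the mutant library. Nrarp, a Notch target, had 42 and 5 UMIs in the control and 22 and 0 in the mutant library, Notch1 had 19 and 2, then 8 and 3, and Hes1 had log2 ratios of 1.73 and 3.18.

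The genes that were lower in the high range included basal markers and signals. Trp63, a gene of the rule, was found in 1 of 10 high-range and 17 of 18 low-range control barcodes, and in 0 of 9 and 10 of 14 mutant barcodes. Wnt10a had 1 UMI in the high and 49 in the low range of the control library, and 0 and 58 in the mutant library. Id3, a target of BMP signalling, had 7 and 343 UMIs in the control and 2 and 216 in the mutant library. Aldh1a3 had 5 and 92, then 0 and 52 UMIs, and Dlk2, a Notch ligand relative, had 2 and 53, then 0 and 70. Col17a1 was found in the low range alone, with 20 and 8 UMIs. The secreted and matrix-related genes Igfbp5, Efemp1, Nbl1 and Pltp, the growth arrest gene Gas1, the actin-binding gene Cotl1 and Kremen2 completed this set, with log2 ratios from -2.22 (Gas1, mutant) to -4.64 (Pltp, mutant).

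Wnt4 and Wnt6 were lower in the high range but present in both. Wnt4 came to 310 CPM in the high range of each library, against 833 and 828 CPM in the low range (log2 -1.40 and -1.39, intervals -1.93 to -0.96 and -1.92 to -0.95). Wnt6 came to 348 and 369 CPM, against 728 and 722 CPM (log2 -1.04 and -0.94). Pdgfa had a lower ratio still, with 29 and 317 UMIs in the control and 11 and 215 in the mutant library (log2 -1.78 and -2.81). Both libraries thus showed the same direction for all 3 ligands. Lypd2, which encodes a small surface protein and is known from conjunctival epithelium, was found in the low range alone, with 51 UMIs in 6 of 18 control and 96 in 9 of 14 mutant barcodes.

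**Figure D4:**
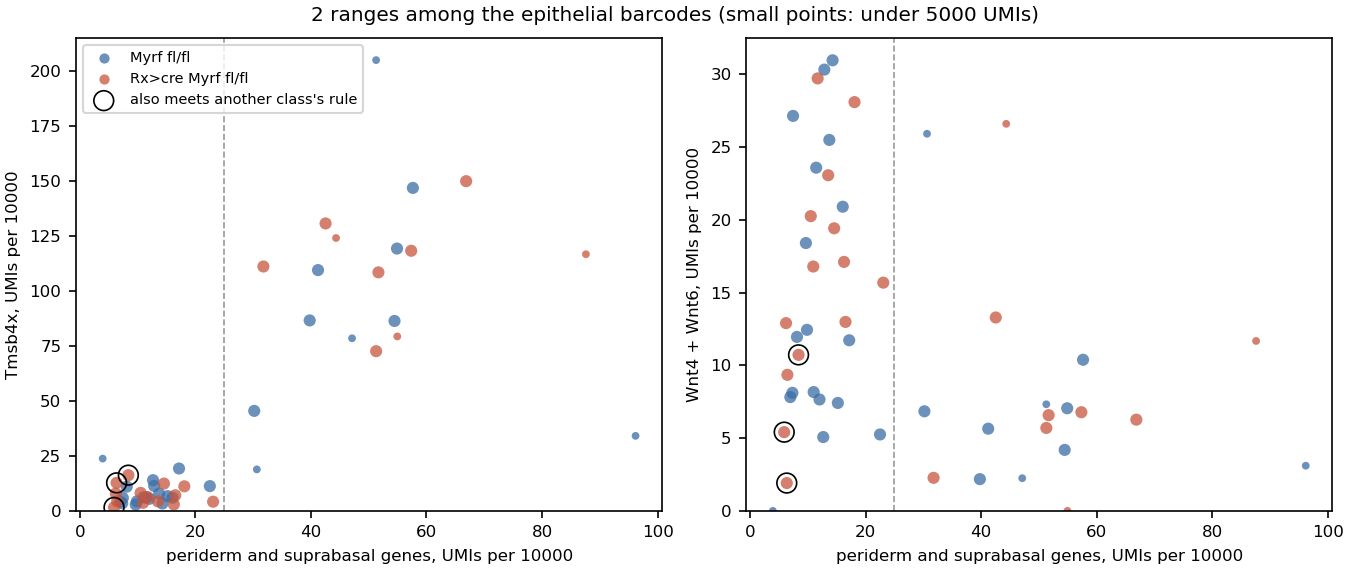
Each point is 1 epithelial barcode, with the summed periderm and suprabasal list on the x axis and, on the y axes, Tmsb4x (left) and Wnt4 plus Wnt6 (right), all in UMIs per 10000. The dashed line is 25 per 10000, small points have under 5000 UMIs, and circles mark the 3 barcodes that met a second rule. Tmsb4x is above 70 per 10000 for most points right of the line and under 25 left of it, and the highest Wnt sums are mostly left of it.

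Cells in division were found in both libraries. Thinned to 3000 UMIs, 17 of 26 control barcodes (65.4%, 44.3 to 82.8) and 11 of 21 mutant barcodes (52.4%, 29.8 to 74.3) held more than 5 UMIs of a list of 52 G2/M genes. Over 20 further draws the numbers ran from 12 to 17 (median 14.5) and from 9 to 14 (median 11). No change between the libraries can therefore be read from these shares. The other barcodes stood at 58.6% and 51.9%, retina at 81.4% and 78.9%, and red blood cells at 8.56% and 7.06%. The epithelial shares were thus close to those of all other barcodes, within wide intervals, and lay under those of retina. Of 22 S-phase genes with enough UMIs, 16 were lower in the high range in both libraries and none was higher in both, while over all 2703 genes 797 were lower and 931 higher in both. Their summed level was 2243 and 3219 CPM in the high and low range of the control library and 1189 and 3328 CPM in the mutant library. The summed G2/M list did not share a direction. It came to 2961 and 6093 CPM in the control library and to 5576 and 3742 CPM in the mutant library. Of 24 genes 6 were lower and 2 higher in both. Counted per barcode after thinning, both libraries went the same way, with overlapping intervals. More than 5 G2/M UMIs were held by 4 of 9 high-range and 13 of 17 low-range control barcodes. In the mutant library these were 2 of 7 and 9 of 14. The highest mutant high-range barcode held 55 of 3000 UMIs, against a median of 4.

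The gene that was deleted in the mutants was not detected in these cells. Myrf had 0 UMIs in the 541574 UMIs of the control and the 483038 of the mutant epithelial barcodes, which allows at most 6.81 and 7.64 CPM at 95% confidence. In pigment cell barcodes it came to 68.1 and 20.5 CPM. Tmem98, whose protein binds the Myrf protein, had 13 and 11 UMIs in the epithelial barcodes. A difference in Myrf between the epithelial barcodes of the libraries was therefore not detectable at this depth.

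Between the libraries most epithelial genes lay close together. Of 2703 genes with at least 50 UMIs over both libraries, 28 were at least 2-fold higher in the mutant library (1.04%) and 63 at least 2-fold lower (2.33%), with a median log2 ratio of -0.06 over all genes. Scaled by the median of ratios in place of total UMIs, the counts were 31 and 42. Without the 3 barcodes that met a second rule, 39 genes were lower. Among barcodes with Y-linked and no Xist UMIs (7 control, 12 mutant), the balance turned to 55 higher and 17 lower. Wnt4 and Wnt6 had log2 ratios of -0.05 (-0.26 to 0.17) and -0.03 (-0.26 to 0.20). Pax6 had -0.15 (-0.48 to 0.16) and Sfn 0.21 (0.02 to 0.41), so none of these 4 genes came near a 2-fold difference.

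Genes of the X inactivation centre and Y chromosome, ribosomal and mitochondrial genes and those of haemoglobin were set apart before genes were named from this comparison, and some of them held larger differences than the named genes: Xist had 296 control and 54 mutant UMIs (log2 -2.27), and haemoglobin is given below. Among the other genes with at least 100 UMIs, the lowest ratios were those of Nnat and 1600014C10Rik. Nnat, an imprinted gene that encodes the membrane protein neuronatin, had 243 control and 60 mutant UMIs (449 and 124 CPM; log2 -1.83, -2.29 to -1.44). In the other barcodes its ratio was 0.00, and without the barcode that held most of its UMIs it was -1.58, and in the high range alone it was -0.14. 1600014C10Rik had 728 and 182 UMIs (log2 -1.83, -2.08 to -1.60). Its median over barcodes was 7.19 UMIs per 10000 for control and 0 for mutant, and among barcodes with at least 10000 UMIs it was missing from 1 of 22 and 10 of 20. The same gene was also lower in the other barcodes of the mutant library, by a log2 ratio of -1.10. In the low range it was -2.29 and in the high range 0.28.

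The other genes in the lower set were Sms, spermine synthase (104 and 35 UMIs, log2 -1.38), the splicing kinase gene Srpk1 (80 and 29, -1.27), the linker histone gene Hist1h1e (86 and 34, -1.15), the early response gene Ier2 (83 and 33, -1.14), AC160336.1 (146 and 61, -1.08) and Immt, a mitochondrial inner membrane gene (77 and 32, -1.08). In the other barcodes these 6 genes had ratios from -0.32 to -0.08. Without the barcode with most UMIs of the gene, Hist1h1e, Ier2, AC160336.1 and Immt no longer reached 2-fold, with ratios from -0.996 to -0.76. On the other side, the ratio of Sparc was then 0.96 and that of Hspb1 0.89.

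With the same genes set apart, the highest ratio in the mutant library was that of Ckb, brain-type creatine kinase, with 37 and 141 UMIs (log2 2.07, 1.56 to 2.66). Of the 141 mutant UMIs, 88 lay in the 2 barcodes that also met the retina rule, and without barcodes that met a second rule the ratio was 0.97. Myl9, a smooth muscle myosin light chain, had 28 and 89 UMIs (log2 1.80), with 0.89 in the low range. Cnn2, calponin 2, had 32 and 73 UMIs (1.33), and Cops3, a COP9 signalosome subunit, had 38 and 76 (1.15). Hspb1, a small heat shock protein, had 263 and 495 UMIs (1.07), with 0.64 in the low range. Lypd2 (51 and 96 UMIs, 1.06) had a ratio of 0.52 without its highest barcode. Sparc, a matrix protein gene, had 71 and 130 UMIs (1.03), and Anxa1, a periderm list gene, 84 and 149 (0.98).

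**Figure D5:**
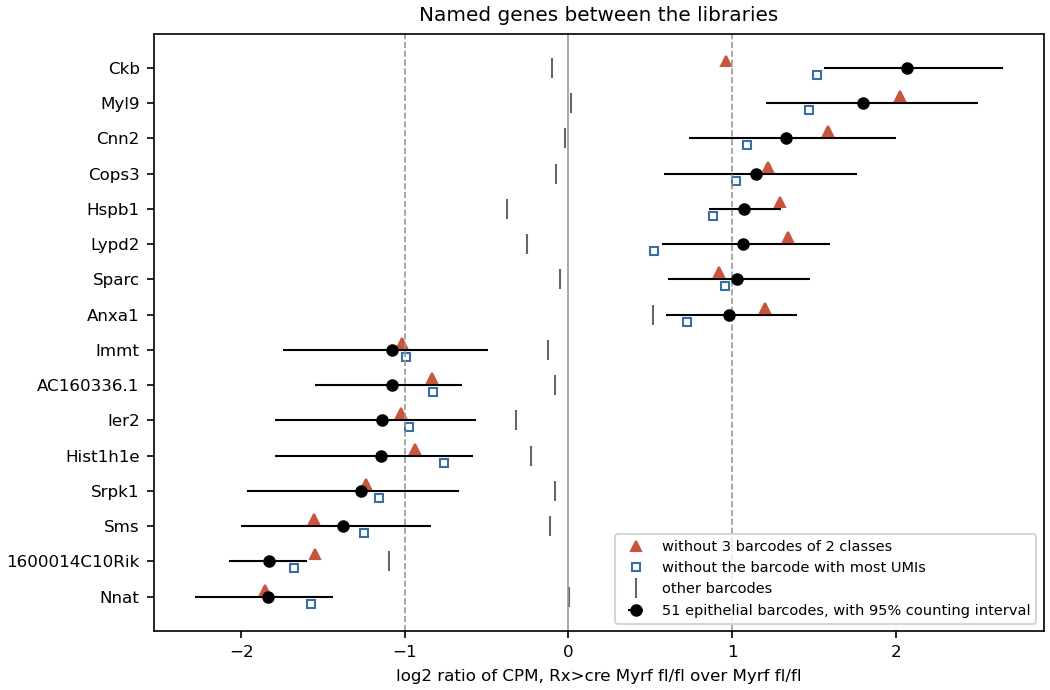
Log2 ratio of CPM, mutant over control, for the 8 lowest and 8 highest ratios among epithelial barcodes, over genes with at least 100 UMIs with sex-linked, ribosomal, mitochondrial and haemoglobin genes set apart (black points with 95% counting intervals). Red triangles leave out the 3 barcodes that met a second rule, blue squares leave out the barcode with most UMIs of the gene, grey ticks are all other barcodes, and dashed lines mark 2-fold. Ckb is at 2.07 with and 0.97 without the 3 barcodes, and 1600014C10Rik is the one gene here whose tick lies past -1.

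By group, the libraries showed few 2-fold differences. Of 6 signalling ligands with enough UMIs, 1 was at least 2-fold lower, Pdgfc, with 65 and 18 UMIs (log2 -1.63), and none was higher. Of 8 ocular surface genes, 2 were lower and none was higher. Barx2 was at the line, with a log2 ratio of -1.003 (-1.34 to -0.68), and Sox9, a progenitor factor, had 56 and 19 UMIs (-1.35). None of 6 junction genes, 7 signalling targets or 5 retinoid genes passed 2-fold, and the target and retinoid medians were -0.52 and -0.54 against -0.06 for all genes. Of 24 G2/M genes none passed 2-fold, 22 were lower and 2 higher (median -0.32), where over all genes 1575 of 2703 were lower and 1128 higher. The 7 haemoglobin genes were all higher in the mutant library, with a median of 7.09, and of 2.91 without the 3 barcodes that met a second rule. Of the remaining mutant barcodes, 1 had 3.20% haemoglobin UMIs, while the median over barcodes was 0.0289% in the control library and 0.0454% for the mutant. Among the barcodes that were not epithelial, haemoglobin genes were also higher in the mutant library, with a median log2 ratio of 0.86.

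Some list genes with under 100 UMIs, named after their values were seen, differed by more. Cyp26a1, which degrades retinoic acid, had 5 control and 44 mutant UMIs, of which 40.9% came from 1 barcode. Cryab had 19 and 80 UMIs in 8 and 17 barcodes, and Bfsp2, a lens filament gene, had 6 and 18. The lens list as a whole came to 60.9 and 209 CPM, with its most specific crystallins at 0 in both libraries. The part of lens RNA in these values was not tested. Krt14 had 14 UMIs in 7 control barcodes and 1 UMI in the mutant library.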

How the data were processed

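Eyecups of e13.5 mouse embryos were pooled (3 per genotype), dissociated with papain and profiled by 10x Genomics 3′ single-cell RNA sequencing, with 1 library for Myrf fl/fl and 1 for Rx>cre Myrf fl/fl. The authors deposited whole-number UMI counts per gene and barcode (31053 genes, mm10). Their processing notes name Cell Ranger 7.1.0 and Seurat 4.1.1, while the matrix header names software version 3.0.0. Whether intronic reads were counted is not given in the sources used here. The files held 6039 control and 6754 mutant barcodes, with 63483835 and 75228861 UMIs.

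Barcodes with at least 200 genes and at most 15% mitochondrial UMIs were kept, and doublets were not removed. An upper limit of 2000 UMIs, which the study's methods name, was an alternative, since most deposited barcodes exceed it. UMIs were summed per library and class, and log2 ratios were taken after adding 1 UMI to each sum, for genes with at least 50 UMIs. Exact Poisson, Clopper-Pearson, Newcombe and conditional binomial 95% intervals cover counting error only, since reads of 1 library do not replicate embryos. No p-value was computed. Barcodes were thinned without replacement to 3000 UMIs. Comparison classes needed 5 of 8 markers, and red blood cells 20% haemoglobin UMIs. A floor of 3 UMIs was used where a sum was 0. The genes named were the markers, the 15 largest ratios over other barcodes and the 8 largest falls and rises between libraries with at least 100 UMIs (sex-linked, ribosomal, mitochondrial and haemoglobin genes set apart), up to 12 genes each way between the ranges, and list members, of which some are not reported here. The 12 genes each way and the 25 per 10000 line were chosen after the values were seen, and some single list genes were named for their values. The members and lists were chosen with earlier results of these data known. Gene positions came from GENCODE M21 and promoter sequences from RefSeq (GRCm38.p6). Alternatives covered the marker number, mitochondrial limit, doublets, UMI limits, count filters, weights, scaling and embryo sex. The calculations used Python 3.11.15, numpy 2.4.6, scipy 1.17.1, pandas 2.3.3 and scanpy 1.11.5, and were tested on simulated counts.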

Additional observations from a re-analysis of the deposited data

How the results depend on the processing

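With 1 library per genotype, no replicate could be left out, and depth limited these results to genes with at least 50 UMIs. No paired analysis was possible because the result comes from no test and each genotype has 1 library. The genes past 2-fold named between the libraries kept their direction without barcodes of a second class, without the barcode with most UMIs and in the low range, but in the high range 1600014C10Rik was at 0.28, and Lypd2 had no UMI there. The share of epithelial barcodes moved to 0.299% (control) and 0.186% (mutant) with an upper limit of 20000 UMIs, 0.0836% and 0.0898% with 2000 UMIs, and 0.239% and 0.158% when barcodes were thinned to 3000 UMIs before the rule. The number of genes 4-fold higher than in other barcodes was 731 under the 20000 limit, 1785 with at least 10 UMIs and 125 with at least 200. Genes 2-fold higher in the mutant library numbered 11 under the 20000 limit, 55 with the mean per barcode, 268 with at least 10 UMIs, 8 with at least 200, 55 in barcodes with Y-linked and no Xist UMIs, and 11 in the high range. Genes 2-fold lower numbered 8 under the 20000 limit, 37 with no condition on Mlana and Tyr, 39 without barcodes of a second class, 39 with totals that left out mitochondrial, haemoglobin and ribosomal genes, 650 with at least 10 UMIs, 5 with at least 200, 17 in barcodes with Y-linked and no Xist UMIs, and 5 in the high range. The control share with a Pax6 UMI was 25% under the 20000 limit, 78.3% when thinned to 5000 UMIs and 76.5% in the low range, and asking for 2 UMIs gave 23.1% (control) and 4.76% (mutant). The control G2/M share was 41.7% under the 20000 limit. The cause was not tested, except that count filters and smaller sets of barcodes change how many genes enter. Barcodes with Xist alone were too few in the mutant library to be compared (4), and a limit of 2000 UMIs left too few barcodes for gene counts or thinned shares. The ranges were set after seeing the data.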
